A study of Mus musculus with 6 samples.

Results

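Prostaglandins are lipid signals that cells make on demand from arachidonic acid. The 10 genes described here were selected by symbol and run from the first committed step of the pathway to its receptors. They were the cyclooxygenases Ptgs1 and Ptgs2, the terminal synthases Ptges, Ptgis and Ptgds, the inactivating enzyme Hpgd, and the receptors Ptger2, Ptger3, Ptger4 and Ptgfr. All 10 had a row among the 27546 genes of the expression table. The samples were distal colon of 3 Gm31629-/- mice and 3 WT littermates of the C57BL/6 strain, 8 weeks old, with 1 RNA-Seq library per mouse. In Gm31629-/- mice, a stretch of chromosome 1 that encodes the long noncoding RNA Gm31629 was targeted for deletion, not in a single cell type. The drinking water of both groups held 3% DSS (dextran sulfate sodium, which damages the lining of the colon) for 7 days, and tissue was taken on day 8. The comparison was thus between genotypes under injury, with no untreated mice. Values are FPKM, fragments scaled to gene length and to library depth, which allow levels of different genes to be compared per length.

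Cyclooxygenases turn arachidonic acid into the common precursor PGH2, which each terminal synthase converts into 1 product. Ptges (microsomal prostaglandin E synthase) makes PGE2, Ptgis (prostacyclin synthase) makes PGI2, and Ptgds makes PGD2. Ptgs1 is the cyclooxygenase found in most tissues at rest, whereas Ptgs2 is induced by cytokines, growth factors and wounding. In the colon, PGE2 acts through the receptors EP2 (Ptger2) and EP4 (Ptger4) on epithelium, stroma and immune cells and is known for its part in mucosal repair after DSS, while Hpgd, which epithelial cells express strongly, oxidises PGE2 and ends its action.

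The start regions of the cyclooxygenases and of Ptges are shown because Ptgs1 and Ptgs2 encode enzymes of the same activity that differed in how evenly they varied among the mice, and because Ptgs2 and Ptges varied together. Each run is the 250 bases before the transcript start in RefSeq (GRCm38.p6), on the strand of the gene. Capitals mark GC boxes (GGGCGG) and the C/EBP palindrome (TTGCGCAA), searched on both strands.
Ptgs1, chr2:36230176-36230425, plus strand: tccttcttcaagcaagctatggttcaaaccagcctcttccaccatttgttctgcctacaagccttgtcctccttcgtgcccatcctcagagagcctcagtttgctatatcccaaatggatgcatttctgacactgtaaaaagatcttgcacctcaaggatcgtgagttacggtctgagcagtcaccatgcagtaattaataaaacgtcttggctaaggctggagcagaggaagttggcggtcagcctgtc
Ptgs2, chr1:150099781-150100030, plus strand: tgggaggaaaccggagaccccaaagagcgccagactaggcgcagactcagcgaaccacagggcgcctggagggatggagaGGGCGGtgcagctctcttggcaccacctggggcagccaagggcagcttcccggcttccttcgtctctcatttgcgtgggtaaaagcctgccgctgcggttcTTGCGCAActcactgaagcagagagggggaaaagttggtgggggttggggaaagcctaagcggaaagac
Ptges, chr2:30903298-30903547, minus strand: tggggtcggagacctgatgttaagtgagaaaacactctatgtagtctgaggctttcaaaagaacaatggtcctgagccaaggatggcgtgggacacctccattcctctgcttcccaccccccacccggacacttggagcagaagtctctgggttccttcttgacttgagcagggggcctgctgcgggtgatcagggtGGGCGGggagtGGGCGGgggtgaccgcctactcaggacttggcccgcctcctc

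Motifs were searched in the full window of 300 bases, which adds the first 50 bases of the transcript. The Ptgs2 window held the C/EBP palindrome, starting at position -69 from the transcript start, which was present in 0.183% of 32851 RefSeq windows of the same length. It also held 1 GC box at -170, and a cyclic AMP response motif (CGTCA) that overlapped an E-box (CACGTG) at positions 14 and 17 of the transcript, motifs present in 35.7%, 20.8% and 7.15% of windows. The Ptges window held 2 GC boxes at -53 and -42. The Ptgs1 window held none of the 6 motifs searched, which also included a TATA box (TATAAA) and a CCAAT box. For Ptges, the RefSeq start lies inside the gene span of GENCODE. Windows matched 9 of the 10 genes, all but Ptgis. These matches describe letters in a window, not binding.

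The library of Gm31629-/- mouse 1 stood apart in the transcripts of the sex chromosomes. It held transcripts of 4 Y-linked genes and almost none of Xist, and the other 5 libraries had the reverse, whereas the study's methods name male mice. Sex and the position of mouse 1 for Ptgs2, Ptges and Hpgd cannot be told apart with 1 such library, and each result of those genes is given with and without it.

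In WT mice the inactivating enzyme had the highest level of the 10 genes. Hpgd had 56.5 to 71.0 FPKM over the 3 WT libraries, followed by Ptger4 with 4.70 to 5.25 FPKM. Ptges (1.40 to 2.40 FPKM), Ptgs1 (1.05 to 1.53 FPKM) and Ptgs2 (0.685 to 1.31 FPKM) came next, and neighbours in this order overlapped. Ptger3 had 0.420 to 0.475 FPKM. Ptgis and Ptger2 lay at 0.0829 to 0.126 and 0.0603 to 0.159 FPKM and overlapped, Ptgfr was at 0.0392 FPKM or below, and Ptgds was at 0 in each WT library. In Gm31629-/- mice the order differed from mouse to mouse. Hpgd led in mice 1 and 3, whereas in mouse 2 both Ptgs2 (32.5 FPKM) and Ptges (28.9 FPKM) exceeded Hpgd (20.8 FPKM).

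**Figure D1:**
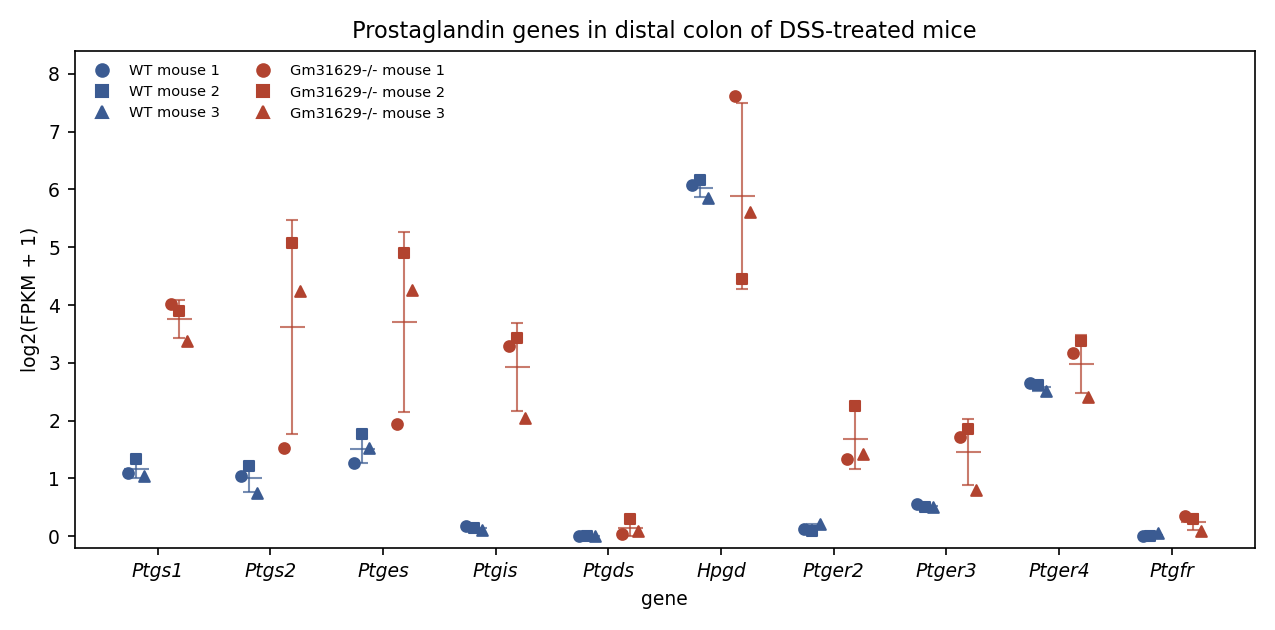
Level of each of the 10 prostaglandin genes on the log2(FPKM + 1) scale in each library, with WT mice in blue and Gm31629-/- mice in red, a marker shape for each mouse number, and bars for the mean and SD of 3 mice. Ptgs1 and Ptgis separate the groups in all 3 Gm31629-/- mice, with Ptgis lowest in mouse 3, Ptgs2 and Ptges are near WT levels in Gm31629-/- mouse 1 alone, and Hpgd spreads to both sides of WT.

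For 8 of the 10 genes, every Gm31629-/- library lay above every WT library, and for Hpgd and Ptger4 the groups overlapped. Among the genes with enough signal to be tested, this held for 6 of 8. Of all 14657 tested genes, 36.3% lay above WT in this way and 21.5% below, so the position of a single gene above WT was common. Genes were tested with limma on log2(FPKM + 1) when their mean over the 6 libraries was at least 0.5 FPKM, and calls required both a log2 fold change above 1 or below -1 and a p under 0.05 after Benjamini-Hochberg adjustment. Of the 8 prostaglandin genes that passed the filter, 5 were called higher (Ptgs1, Ptgs2, Ptges, Ptgis and Ptger2) and 0 lower, against 18.4% of all tested genes called higher and 4.64% called lower. Ptgis, Ptger2 and Ptger3 passed the filter only through their level in Gm31629-/- mice, so their place among the tested genes is not independent of the difference. Ptgds and Ptgfr were below the filter. The median log2 fold change was 1.86 over the 8 genes and 0.15 over all tested genes.

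**Figure D2:**
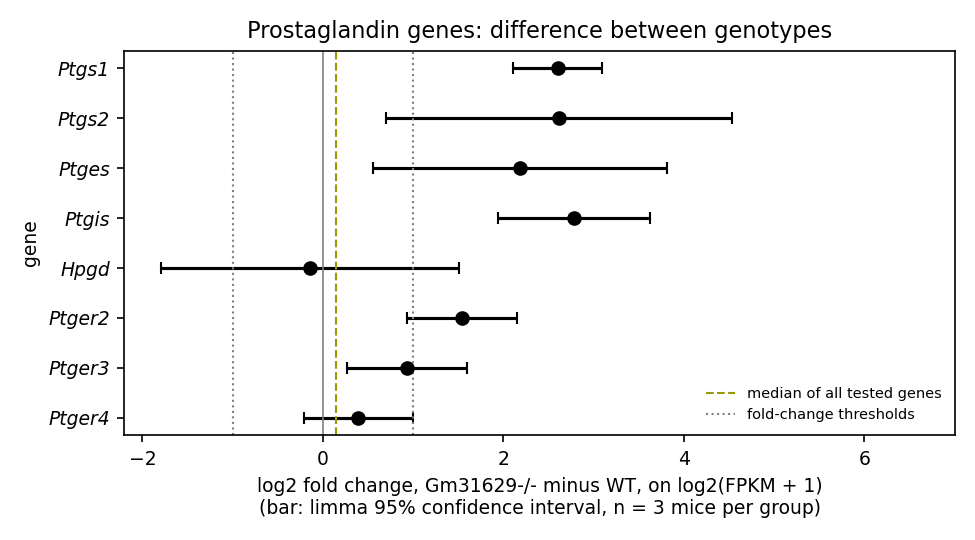
Log2 fold change of the 8 tested prostaglandin genes on the log2(FPKM + 1) scale, Gm31629-/- minus WT, with limma 95% confidence intervals from 3 mice per group. The intervals of Ptgs1, Ptgis and Ptger2 are narrow and above 0, those of Ptgs2 and Ptges are wide, and that of Hpgd reaches from -1.79 to 1.51.

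Ptgs1 (ENSMUSG00000047250, chromosome 2, 36230426 to 36252272 of GRCm38) was higher by a similar amount in each Gm31629-/- mouse. It had 15.1, 13.8 and 9.40 FPKM in Gm31629-/- mice 1 to 3 and 1.14, 1.53 and 1.05 FPKM in WT mice 1 to 3. The lowest Gm31629-/- value was above the highest WT value. The group means were 12.8 ± 3.00 and 1.24 ± 0.253 FPKM (SD, n = 3 each), a ratio of 10.3. Its log2 fold change was 2.60 (standard error 0.21, limma adjusted p = 0.000326), and the adjusted p was at most 0.00399 with any 1 mouse left out.

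Ptgs2 (ENSMUSG00000032487, chromosome 1, 150100031 to 150108227) was higher in Gm31629-/- mice 2 and 3 by far more than in mouse 1. Its level was 1.90, 32.5 and 18.0 FPKM in Gm31629-/- mice 1 to 3 and 1.06, 1.31 and 0.685 FPKM in WT mice. Mouse 1 was just above the highest WT mouse, and the highest Gm31629-/- value was 17.1 times the lowest. The log2 fold change was 2.62 (standard error 0.81, limma adjusted p = 0.0362). The call did not hold in 5 of the 6 fits that left out 1 mouse, where the adjusted p was 0.0780 to 0.115. Without Gm31629-/- mouse 1, the log2 fold change was 3.66 (adjusted p = 0.000452).

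The balance of the cyclooxygenases therefore differed within the Gm31629-/- group. The FPKM ratio of Ptgs1 to Ptgs2 was 1.07, 1.17 and 1.54 in WT mice. In Gm31629-/- mouse 1 it was 7.97, so Ptgs1 was the main cyclooxygenase transcript, whereas in mice 2 and 3 it was 0.425 and 0.523, so Ptgs2 was. The WT ratios lay between those of Gm31629-/- mouse 1 and of the other two mice, and no test was run on them.

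Among the terminal synthases, Ptges (ENSMUSG00000050737, chromosome 2, 30889471 to 30929863) followed the uneven pattern of Ptgs2. Its level was 2.85, 28.9 and 18.2 FPKM in Gm31629-/- mice 1 to 3 and 1.40, 2.40 and 1.87 FPKM in WT mice. Again mouse 1 was the Gm31629-/- mouse nearest to WT. The log2 fold change was 2.19 (standard error 0.69, limma adjusted p = 0.0384). It too was lost in 5 of 6 fits with 1 mouse left out (adjusted p of 0.0772 to 0.120), and it was 3.06 (adjusted p = 0.000511) without Gm31629-/- mouse 1. With limma's voom on recovered fragments, Ptgs2 and Ptges had adjusted p values of 0.0731 and 0.0652. The other PGE synthase genes did not share the wide spread of Ptges among the Gm31629-/- mice. Ptges2, a membrane-associated form, was at 5.37, 3.29 and 4.27 FPKM in Gm31629-/- mice and at 6.16 to 7.91 FPKM in WT mice (log2 fold change -0.65, limma adjusted p = 0.0330). Ptges3, the cytosolic form also known as the chaperone partner p23, had 27.9, 38.2 and 29.8 FPKM in Gm31629-/- mice 1 to 3, the order of Ptges. In WT mice Ptges3 had 15.3 to 24.7 FPKM (log2 fold change 0.71, limma adjusted p = 0.0316). Both passed the adjusted p alone and not the fold threshold. The FPKM ratio of Ptges3 to Ptges was 6.38 to 17.6 in WT mice, 9.81 in Gm31629-/- mouse 1, and 1.32 and 1.64 in mice 2 and 3.

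Ptgis (ENSMUSG00000017969, chromosome 2, 167191805 to 167240604), which makes the vasodilator prostacyclin and is known from vessel walls and smooth muscle, had the largest ratio of group means among the 8 tested prostaglandin genes. It had 8.85, 9.75 and 3.14 FPKM in Gm31629-/- mice 1 to 3 and 0.126, 0.108 and 0.0829 FPKM in WT mice, which rested on 4 to 6 fragments per WT library. The ratio of means was 68.5, and the log2 fold change on the log2(FPKM + 1) scale, which understates changes of low genes, was 2.78 (standard error 0.36, limma adjusted p = 0.00142). The call held with each mouse left out. Ptgds (ENSMUSG00000015090, chromosome 2, 25466709 to 25470046), the lipocalin-type PGD synthase, was barely detected. It had 1, 7 and 2 fragments in Gm31629-/- mice 1 to 3 and 0 in each WT library, where a count of 0 allows up to 3 fragments per library. It was below the filter, and its exact two-sided permutation p was 0.1, the smallest that 3 mice against 3 can give.

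Hpgd (ENSMUSG00000031613, chromosome 8, 56294585 to 56321043) did not separate the groups but was the most variable member by absolute level. Its level was 195, 20.8 and 47.6 FPKM in Gm31629-/- mice 1 to 3 and 66.2, 71.0 and 56.5 FPKM in WT mice. Gm31629-/- mouse 1 was above every WT mouse, and mice 2 and 3 were below every WT mouse. The highest value was 9.35 times the lowest within Gm31629-/- mice and 1.26 times within WT mice. The log2 fold change was -0.14 with a 95% interval of -1.79 to 1.51 (limma adjusted p = 0.885), which leaves room for a change of more than 1 in either direction. Without Gm31629-/- mouse 1, it was -1.0 (adjusted p = 0.0535), and without mouse 2 it was 0.58 (adjusted p = 0.422).

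Among the Gm31629-/- mice, Hpgd ran in the opposite order to Ptgs2 and Ptges, but not to Ptgs1 or Ptgis. The FPKM ratio of Hpgd to Ptgs2 was 62.3, 54.2 and 82.4 in WT mice, 103 in Gm31629-/- mouse 1, 2.64 in mouse 3, and 0.640 in mouse 2. Hpgd therefore exceeded Ptgs2 by 54.2 times or more in 4 libraries, and the other two libraries were both from Gm31629-/- mice. This order rests on 3 mice and was not tested.

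**Figure D3:**
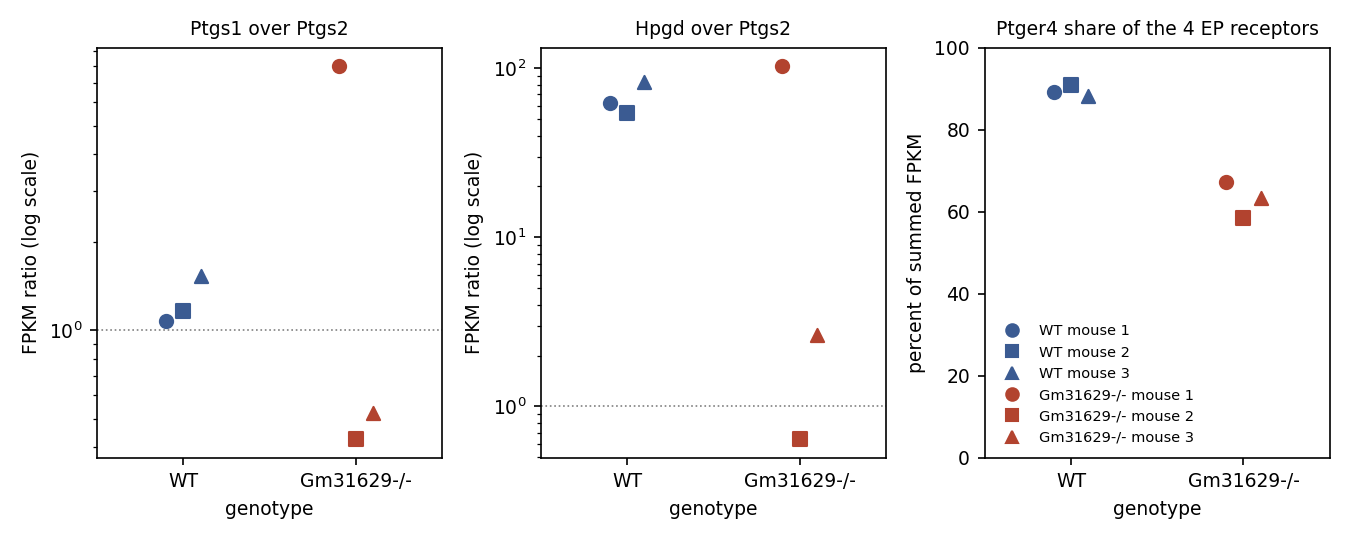
FPKM ratio of Ptgs1 to Ptgs2 and of Hpgd to Ptgs2 on log axes with a dotted line at 1, and the share of Ptger4 in the summed FPKM of the 4 EP receptor genes, with 1 point per mouse. Gm31629-/- mouse 1 stands at 7.97 and 103 in the first panels while mice 2 and 3 lie below WT, and all 3 Gm31629-/- mice lie below WT for the Ptger4 share.

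The receptors for PGE2 differed from each other in level and in how far the groups were apart. Ptger4 (ENSMUSG00000039942, chromosome 15, 5206661 to 5244187), the EP4 receptor, was the most abundant of the 4 EP receptor genes in each of the 6 libraries. Its level was 8.00, 9.34 and 4.32 FPKM in Gm31629-/- mice 1 to 3 and 5.25, 5.14 and 4.70 FPKM in WT mice. Gm31629-/- mouse 3 was below every WT mouse, and the groups overlapped (log2 fold change 0.39, 95% interval -0.21 to 1.00, limma adjusted p = 0.247). Without that mouse the log2 fold change was 0.68 (adjusted p = 0.0207).

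Ptger2 (ENSMUSG00000037759, chromosome 14, 44988195 to 45003820), the EP2 receptor, which like EP4 raises cyclic AMP, was near the limit of detection in WT mice. It had 1.53, 3.79 and 1.68 FPKM in Gm31629-/- mice 1 to 3 and 0.0880, 0.0603 and 0.159 FPKM in WT mice, from 6 to 16 fragments per WT library. The groups were far apart, with a ratio of means of 22.8 and a limma log2 fold change of 1.54 (standard error 0.26, adjusted p = 0.00387). The call held in each of the 6 fits with 1 mouse left out (adjusted p of at most 0.0199).

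Ptger3 (ENSMUSG00000040016, chromosome 3, 157566892 to 157645888), the EP3 receptor, which mainly lowers cyclic AMP, had 2.27, 2.63 and 0.746 FPKM in Gm31629-/- mice 1 to 3 and 0.475, 0.420 and 0.421 FPKM in WT mice. The groups did not overlap, though mouse 3 was closer to WT than the other two. The ratio of means was 4.29. The limma log2 fold change, 0.93 (standard error 0.28, adjusted p = 0.0325), passed the adjusted p and not the fold threshold, and the adjusted p was above 0.05 in 5 of 6 fits with 1 mouse left out, where it reached 0.0990. It was called with a pseudocount of 0.1 (log2 fold change 1.71, adjusted p = 0.0223) and with voom (1.90, adjusted p = 0.0302).

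Within the summed FPKM of the 4 EP receptor genes, Ptger4 made up 89.3%, 91.0% and 88.2% in WT mice 1 to 3 and 67.2%, 58.6% and 63.3% in Gm31629-/- mice 1 to 3. The share of Ptger2 was 1.07% to 2.98% in WT mice and 12.9% to 24.6% in Gm31629-/- mice, and that of Ptger3 was 7.43% to 8.07% and 10.9% to 19.1%. The groups did not overlap for any of these shares, which were not tested. Ptger1, the fourth EP receptor, was at 0.179 FPKM or below in each library.

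Ptgfr (ENSMUSG00000028036, chromosome 3, 151796502 to 151837630), the receptor for PGF2 alpha, had 34, 29 and 8 fragments in Gm31629-/- mice 1 to 3 and 1, 0 and 5 fragments in WT mice 1 to 3. Each Gm31629-/- library was above each WT library, with an exact two-sided permutation p of 0.1 on FPKM, the smallest the design allows. Its mean FPKM was below the filter, and without the filter its limma adjusted p was 0.0666.

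**Figure D4:**
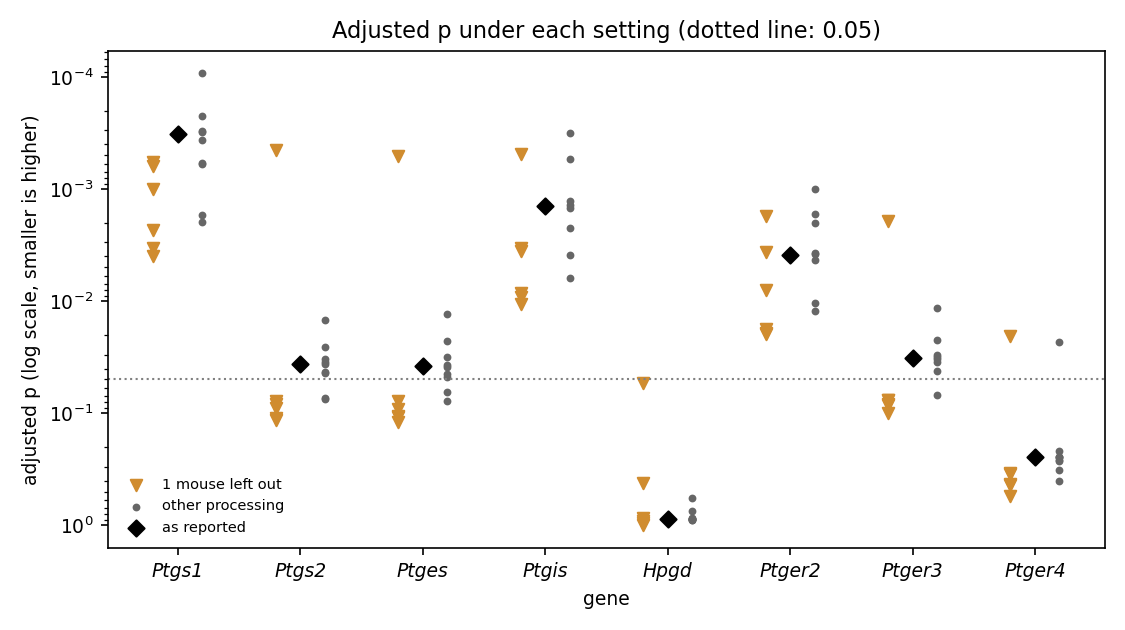
Adjusted p of the 8 tested prostaglandin genes as reported (diamonds), in 6 fits with 1 mouse left out (triangles) and under the other processing settings (dots), on a log axis with small values at the top and a dotted line at 0.05. Ptgs1, Ptgis and Ptger2 stay above the line in each fit, and Ptgs2, Ptges and Ptger3 cross it in 5 of the 6 fits with 1 mouse left out.

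Around these 10 genes, 40 other genes of prostaglandin and leukotriene metabolism were examined, of which 32 passed the filter. Of these, 8 were called higher and 4 lower, against 18.4% and 4.64% of all tested genes, and the median log2 fold change was 0.23. Pla2g2d, Hpgds, Tbxas1, Ptgir, Tbxa2r and Alox5ap passed the filter only through Gm31629-/- mice, and Pla2g4c, Akr1c18 and Alox15 only through WT mice. Their place among the tested genes is thus not independent of the difference, and these counts are a description. Ptgir, the prostacyclin receptor, had 1.26, 3.32 and 1.36 FPKM in Gm31629-/- mice 1 to 3 and 0.150 FPKM or less in WT mice (log2 fold change 1.42, limma adjusted p = 0.00582). Tbxa2r, the thromboxane receptor, had 1.69 to 2.46 FPKM in Gm31629-/- mice against 0.232 FPKM or less (log2 fold change 1.5, limma adjusted p = 0.000920). Ptgdr and Ptgdr2, the receptors for PGD2, were below the filter.

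Other steps moved in both directions. Among the phospholipases A2, which release arachidonic acid and other fatty acids from membranes, Pla2g4f, Pla2g2d and Pla2g2f were called higher (log2 fold changes 1.83, 1.31 and 1.27) and Pla2g4c, Pla2g3 and Pla2g5 lower (-1.10, -1.22 and -1.36), while Pla2g4a, the main cytosolic form, overlapped between the groups (log2 fold change 0.46, limma adjusted p = 0.341). Hpgds, the haematopoietic PGD synthase, had 8.63, 2.50 and 2.27 FPKM in Gm31629-/- mice 1 to 3 and 0.261 to 0.356 FPKM in WT mice (log2 fold change 1.88, limma adjusted p = 0.00927). Tbxas1, thromboxane synthase, had 0.533 to 1.40 against 0.0644 to 0.202 FPKM (log2 fold change 0.76, limma adjusted p = 0.0189). Slco2a1, which carries prostaglandins into cells where Hpgd can act on them, had 29.1, 23.3 and 31.2 FPKM against 13.6, 12.4 and 12.8 FPKM (log2 fold change 1.04, limma adjusted p = 0.00232). Its Gm31629-/- values lay close together, whereas those of Hpgd did not. Akr1c18, an aldo-keto reductase best known for inactivating progesterone, fell, with 3, 0 and 0 fragments in Gm31629-/- mice 1 to 3 against 89, 179 and 131 in WT mice (log2 fold change -2.70, limma adjusted p = 0.000426).

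**Figure D5:**
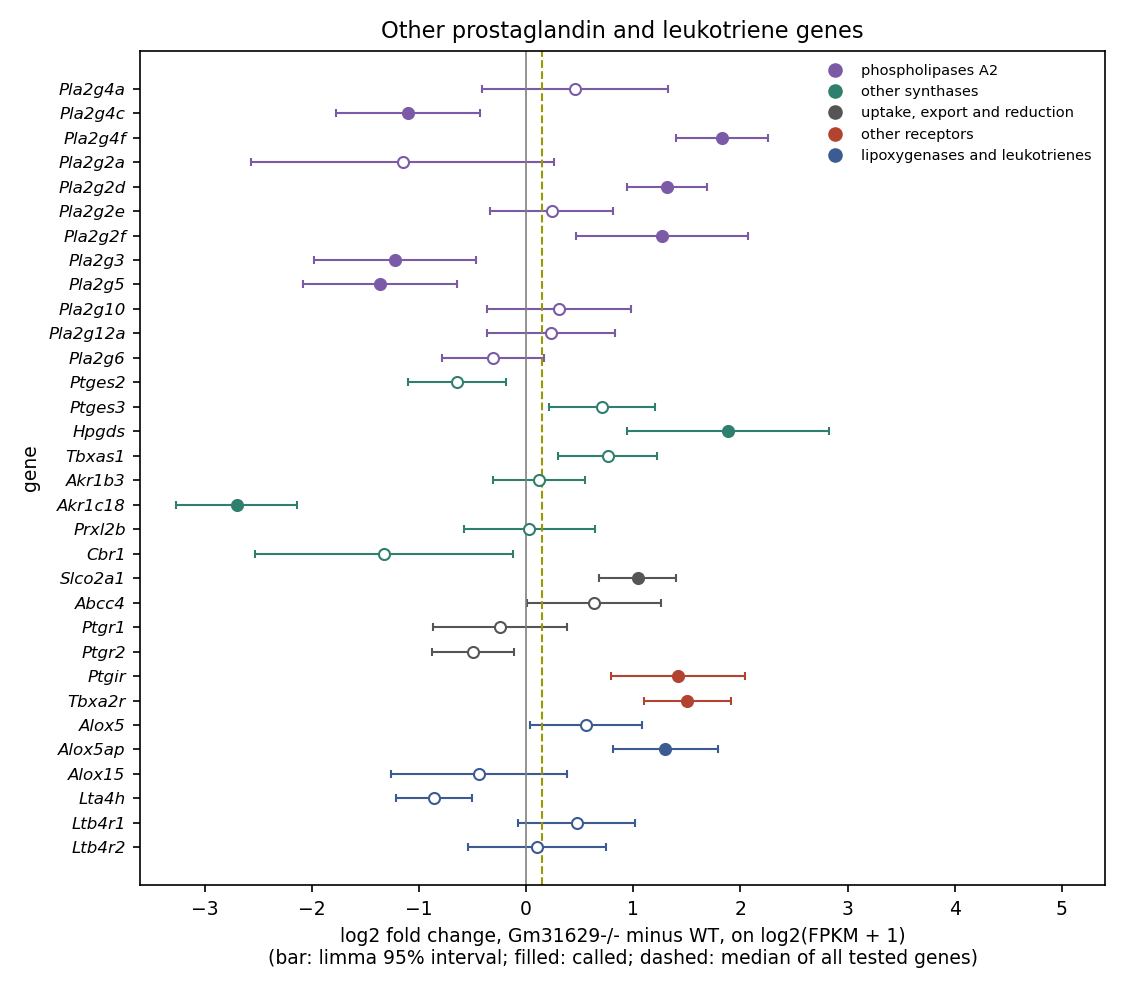
Log2 fold change on the log2(FPKM + 1) scale, Gm31629-/- minus WT, of the 32 tested genes of prostaglandin and leukotriene metabolism outside the 10, colored by role, with limma 95% intervals and filled points for called genes. Called genes lie on both sides of 0, and the prostanoid receptors Ptgir and Tbxa2r lie to the right.

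Markers of many cell types in the colon wall also differed between the groups, though not those of every type. In bulk tissue, fewer cells of a type and less RNA per cell cannot be told apart. All 15 colon epithelium markers were present, with a summed level of 8094 to 9589 FPKM in Gm31629-/- and 12973 to 14171 FPKM in WT mice, and 4 of the 15 were called lower. In every Gm31629-/- library, 9 of the 15 were below every WT library and 1, Tspan8, was above. Of all tested genes, 21.5% lay below and 36.3% above in this way. Calls were lower for 4.64% of all tested genes and higher for 18.4%, the shares to set beside each count of called markers here. The group means of Epcam (1109 against 1104 FPKM) and Cdh1 (395 against 405 FPKM) were close. The 10 smooth muscle markers summed to 1142 to 1745 against 9.21 to 26.9 FPKM, and all 10 were above every WT library. Of 9 tested, 8 were called higher, all but Tagln. The WT libraries thus held these markers at a far lower summed level. All 8 fibroblast markers (207 to 589 against 19.8 to 41.2 FPKM), 8 endothelial markers (61.2 to 134 against 3.72 to 9.08 FPKM), 8 macrophage markers (581 to 1284 against 57.8 to 72.8 FPKM) and 7 neutrophil markers (513 to 1032 against 70.4 to 128 FPKM) were called higher. Of 10 neuron and glia markers, 9 were called higher (40.1 to 137 against 2.82 to 5.41 FPKM), and Elavl4 was at 0 in each WT library. The 7 mesothelial markers summed to 3.49 to 42.6 against 2.51 to 3.02 FPKM, with 2 of 3 tested called higher and Wt1 and Bnc1 at 0 in WT mice. The 6 adipocyte markers summed to 57.6 to 137 against 10.1 to 20.6 FPKM, with 4 of 5 tested called higher. The 9 mast cell markers overlapped in sum (2.94 to 22.8 against 9.91 to 18.0 FPKM, with Tpsab1 at 0 in 5 libraries and Ms4a2 in 2), and 0 of 4 tested were called. The 9 tuft cell markers summed to 12.4 to 30.6 against 8.98 to 9.99 FPKM, with 1 of 7 tested called higher.

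Among the Gm31629-/- mice, some lists had the order of a prostaglandin gene and others did not. The summed fibroblast markers were 207, 589 and 381 FPKM and the endothelial markers 61.2, 134 and 96.4 FPKM in mice 1 to 3, the order of Ptgs2, Ptges and Ptger2. The smooth muscle markers summed to 1745, 1288 and 1142 FPKM, the order of Ptgs1, but Actg2, Des and Tagln had the order of Hpgd. Myocd was highest in mouse 3. The summed macrophage markers followed the fibroblast order, with 581, 1284 and 672 FPKM. Among them, C1qa, C1qb, C1qc and Mrc1 had the order of Ptgis instead. The mesothelial markers were 23.0, 42.6 and 3.49 FPKM and the neuron and glia markers 90.2, 137 and 40.1 FPKM, the order of Ptgis, Ptger3 and Ptger4. The summed tuft cell markers, at 30.6, 15.5 and 12.4 FPKM, had the order of Hpgds, Ptgs1 and Ptgfr. Of the single tuft markers, only Sh2d6 and Rgs13 had that order. Trpm5, Pou2f3, Sh2d7 and Gnat3 had the order of Hpgd, Dclk1 and Avil that of Ptgis, and Il25 that of Ptgs2. The summed neutrophil markers (513, 737 and 1032 FPKM) and epithelial markers (8094, 8691 and 9589 FPKM) had an order that none of the 10 genes had. Single markers in the other lists did not all follow their sum either. The exceptions were Lum among fibroblast, Cldn5 among endothelial, and Elavl4 among neuron and glia markers. Of the neutrophil markers, Ly6g did (288, 596 and 965 FPKM). S100a8 (45.3, 27.7 and 14.3 FPKM), S100a9, Mmp8 and Retnlg ran the other way, the order of Ptgs1 and Ptgfr. Csf3r and Cxcr2 were highest in mouse 2. Of the epithelial markers, Krt8, Krt19, Cdh1 and Elf3 followed the sum. Epcam, Cldn3 and Cdx2 had the order of Hpgd, and the others had neither order. With 3 mice, any order can recur across genes, and the part of these cell types in the results was not tested.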

How the data were processed

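RNA-Seq libraries were made from total RNA of distal colon. The authors deposited 1 table of FPKM values, 1 column per mouse. The submitters' processing notes name HISAT2 2.1.0, HTSeq 0.6.0 and GRCm38, and the annotation is not given in the sources used here. The methods speak of pooled RNA, but the table holds a column per mouse, and the columns were treated as separate mice. The members and lists were chosen with earlier results of these data known.

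Symbols, positions and exon lengths came from GENCODE M21 (GRCm38), which matched 27488 of 27546 identifiers. No row matched Gm31629, so the deletion was not checked here. Fragments were recovered as FPKM times exon length times depth, and 96.3% to 97.2% of the values of 20 fragments or fewer were whole to within 0.1. Depth was 18006000 to 18795100 fragments per library, and limits from fragments cover counting error only. Exons of Ptgs1, Ptgis, Ptger2, Ptger4 and Ptgfr share 148, 156, up to 246, up to 1015 and 329 bases with a gene on the other strand, from which reads cannot be told apart in counting without strand.

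Genes with a mean of at least 0.5 FPKM were compared on log2(FPKM + 1) by limma 3.58.1 (R 4.3.3), with eBayes set to a mean-variance trend, in a script checked on simulated data. The study used DEGseq, which was not repeated. No library repeated another, since the chi-square per gene between replicates was 32.1 or more. The labels do not say that the samples are separate litters, so p values measure the spread between these mice. The genes named are the 10 members, called or receptor and synthase genes of the fixed pathway list, and the 3 genes most alike to Ptgs2. Pla2g4a and leukotriene genes that were not called are named although outside that rule, with their values known. Figures were drawn with matplotlib 3.10.9.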

Additional observations from a re-analysis of the deposited data

How the results depend on the processing

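Ptgs1, Ptgis and Ptger2 kept their direction and an adjusted p under 0.05 in limma under each alternative in which they were tested, and Ptgis, Ptger2 and Ptger3 were not tested at a mean of at least 5 FPKM. Without a filter, the adjusted p of Ptgs2, Ptges and Ptger3 was above 0.05 at unchanged log2 fold changes of 2.62, 2.19 and 0.93. That fit tested 27546 genes in place of 14657 and also estimated the mean-variance trend over them. With voom on recovered fragments, the adjusted p was above 0.05 for Ptgs2 (log2 fold change 3.39) and Ptges (2.63). With 1 mouse left out, the log2 fold changes were 1.89 to 3.66 for Ptgs2, 1.59 to 3.06 for Ptges, 0.73 to 1.26 for Ptger3, 0.20 to 0.68 for Ptger4 and -1.0 to 0.58 for Hpgd. With each library scaled to the 15 epithelial markers, Hpgd reversed to 0.47, Ptger4 passed the adjusted p but not the fold threshold at 0.92, and Ptger3 was called at 1.22, where the median of all tested genes moved from 0.15 to 0.62. That scaling called 4495 genes higher and 243 lower in place of 2704 and 680, so 94.9% of calls were higher in place of 79.9%, and 1 other pathway gene lower in place of 4. At a mean of at least 5 FPKM, 956 genes were called higher (66.0% of calls), with 3 of 5 prostaglandin genes and, of 12 other pathway genes, 3 higher and 1 lower. Without a filter 3 prostaglandin genes were called higher, and with 1 mouse left out 3 to 5, with 2 to 4 other pathway genes lower. Without Gm31629-/- mouse 2 or any 1 WT mouse, 3 were called. The log2 fold changes of Ptgis and Ptger2 were 5.01 and 3.50 with a pseudocount of 0.1 and 5.82 and 4.40 with voom. The cause of these shifts was not tested.

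The replicate numbers did not pair the mice, since deviations of same-numbered mice correlated at 0.036, -0.11 and 0.014 and not every number correlated best with itself. With the replicate number as a block, 2709 genes were called higher and 648 lower, and 5 prostaglandin genes were called higher.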

Other observations

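Leukotrienes are the other main class of lipid signals made from arachidonic acid. Alox5ap, the membrane partner that 5-lipoxygenase needs, had 2.14, 3.55 and 1.84 FPKM in Gm31629-/- mice 1 to 3 and 0.375 to 0.430 FPKM in WT mice and was called higher (log2 fold change 1.3, limma adjusted p = 0.00309). Alox5, 5-lipoxygenase itself, had 2.77, 1.33 and 1.37 FPKM against 0.750, 0.893 and 0.972 FPKM, a separation that did not pass (log2 fold change 0.56, limma adjusted p = 0.0789). Lta4h, which completes leukotriene B4, had 11.5, 11.3 and 14.3 FPKM against 21.2, 23.0 and 25.2 FPKM. Its log2 fold change of -0.86 (limma adjusted p = 0.00457) passed the adjusted p and not the fold threshold. The cysteinyl leukotriene receptors Cysltr1 (0.529 to 1.00 against 0.0216 FPKM or less) and Cysltr2 (0.423 to 1.14 against 0.0900 FPKM or less) were below the filter, and each Gm31629-/- library was above each WT library.

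The genes most like Ptgs2 over the 6 libraries by Pearson's r of log2(FPKM + 1) were Chsy3, Lama1 and Cnpy4, each with r = 0.998. Each was highest in Gm31629-/- mice 2 and 3, as Ptgs2 was. In WT mice Chsy3 had 0.0553 FPKM or less and Lama1 0.379 FPKM or less. Those genes thus passed the filter only through Gm31629-/- mice. The 6 points share the 2 genotypes, and r is given as a description.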
